A study of Mus musculus with 12 samples.

Results

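The genes described here encode the receptors with which myeloid cells of the mouse bind IgG, together with the chain through which most of them signal. Members were the rows of the value table whose single gene symbol was one of 6 listed symbols, *Fcgr1*, *Fcgr2b*, *Fcgr3*, *Fcgr4*, *Fcer1g* and *Fcgrt*, among 19938 distinct symbols on 35556 rows. Each of the first 5 had 1 row. *Fcgrt*, which encodes the neonatal Fc receptor, had 0 rows of this kind and was not analysed here. The samples were resident macrophages (RM) and CD11b+ dendritic cells (CD11b+ DC) sorted from the cecum of C57Bl/6 mice of both sexes aged 6 to 8 weeks, and gene expression was measured on 12 Affymetrix arrays. There were 4 samples of Runx3Δ RM and 3 of WT RM, and 3 samples of Runx3Δ CD11b+ DC and 2 of WT CD11b+ DC, each a pool of cells from 3 to 4 mice. Runx3Δ mice carry floxed *Runx3* alleles and a Cre driven by CD11c, a promoter active in both cell types, and their samples are labelled Runx3 -/-, while WT samples are labelled Runx3 +/+. Both cell types were gated as CD45+, CD11c+, MHCII+, CD11b+ and Ly6c-, with RM positive and CD11b+ DC negative for the macrophage antigen encoded by *Adgre1*, so no Fc receptor took part in the sort.

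Fcγ receptors recognise the constant part of IgG and so tie antibodies to phagocytosis, killing and cytokine release by myeloid cells. The activating receptors FcγRI, FcγRIII and FcγRIV have little signalling capacity of their own and depend on the common γ chain, encoded by *Fcer1g*, whose tyrosine motif recruits the kinase Syk once Src family kinases have phosphorylated it. FcγRIIB, the inhibitory member, carries its own motif and recruits the phosphatase SHIP-1, so the balance between both kinds sets the threshold at which immune complexes activate a cell. FcγRI, known as CD64, is widely used to tell intestinal macrophages from dendritic cells.

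In the RefSeq annotation *Fcgr2b*, *Fcgr4*, *Fcgr3* and *Fcer1g* lie near each other on chromosome 1, *Fcgr1* on chromosome 3 and *Fcgrt* on chromosome 7. Because the mutated factor binds DNA through the RUNX core, the 250 bases before each annotated start were searched on both strands for TGTGGT or TGCGGT, for GAGGAA, which is read by the myeloid factor PU.1, and for TTCNNNGAA, the gamma-activated site of interferon-γ signalling. A RUNX core was found before *Fcgr3* and *Fcgr4*, a PU.1 match before *Fcgr1*, *Fcgr3* and *Fcgr4*, and a gamma-activated site before *Fcgr1*. The 3 windows with a match are shown, 5′ to 3′ along the gene and with the matches in capitals.
Fcgr1: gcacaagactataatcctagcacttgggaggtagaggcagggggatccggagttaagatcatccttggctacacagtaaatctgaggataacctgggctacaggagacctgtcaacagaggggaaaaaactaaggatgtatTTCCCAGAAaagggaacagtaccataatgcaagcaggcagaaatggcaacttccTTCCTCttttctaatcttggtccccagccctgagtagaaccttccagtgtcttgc
Fcgr3: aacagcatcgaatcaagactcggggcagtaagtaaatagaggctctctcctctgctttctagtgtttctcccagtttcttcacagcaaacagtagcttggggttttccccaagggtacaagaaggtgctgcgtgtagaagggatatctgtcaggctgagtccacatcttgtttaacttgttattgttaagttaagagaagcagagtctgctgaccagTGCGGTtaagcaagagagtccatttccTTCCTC
Fcgr4: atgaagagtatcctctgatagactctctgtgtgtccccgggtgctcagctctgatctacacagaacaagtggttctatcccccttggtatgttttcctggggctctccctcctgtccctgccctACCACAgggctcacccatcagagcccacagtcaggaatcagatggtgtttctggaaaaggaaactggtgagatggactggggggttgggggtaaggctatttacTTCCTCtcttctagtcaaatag
The windows come from RefSeq (GRCm38.p6) and lie at chr3:96293970-96294219 on the minus strand for *Fcgr1*, chr1:171059404-171059653 on the minus strand for *Fcgr3* and chr1:171018676-171018925 on the plus strand for *Fcgr4*. In *Fcgr1* the capitals mark the gamma-activated site, 109 to 101 bases before the start, and a PU.1 match on the opposite strand, 55 to 50 bases before it. In *Fcgr3* they mark a RUNX core, 33 to 28 bases before the start, and a PU.1 match on the opposite strand, 6 to 1 bases before it. A second annotated start of *Fcgr3* holds the same matches. In *Fcgr4* both matches are on the opposite strand, the RUNX core 126 to 121 and the PU.1 match 22 to 17 bases before the start. No match overlapped another, and the windows of *Fcgr2b*, *Fcer1g* and *Fcgrt* held 0. Of 32817 mouse promoter windows of this length, 18.6% held the RUNX core, 23.3% the PU.1 letters and 7.01% the gamma-activated site, so such matches are common and describe the letters alone.

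The deposited values are log2 intensities normalised by RMA with a GC correction, and a difference of 1 on this scale is a doubling. Array medians lay between 5.33 and 5.52, and samples of 1 group correlated at 0.979 to 0.991 over all rows. *Runx3* itself (row 10509030) was at 9.94 ± 0.16 in Runx3Δ RM and 9.69 ± 0.19 in WT RM, and at 10.04 ± 0.09 in Runx3Δ and 10.05 ± 0.09 in WT CD11b+ DC (SD, n = 4, 3, 3 and 2). The deletion takes out 1 coding exon, so this row does not check the genotype labels. The RM label fitted its markers, of which 9 of 10 were higher in RM than in CD11b+ DC in both genotypes (all but *Cd163*). The mean of the 10 lay at 10.96 to 11.58 in RM and 9.17 to 9.65 in CD11b+ DC. The list holds *Adgre1*, whose antigen defined the gates, so that gene is no check of the label. Lists were also chosen with earlier results of these data known. Of 8 CD11b+ DC markers, 7 were lower in RM in Runx3Δ and 8 in WT. By the same test, described below, 3.73% of all rows were higher and 4.12% lower in RM in Runx3Δ. In WT these shares were 3.05% and 3.02%. The labels hold litter mate numbers, and samples with an equal number are assumed here to share a litter. Samples of RM and CD11b+ DC of 1 genotype share litter numbers, and whether they came from the same mice is not stated, so p-values measure the spread between these samples, in a fit without the litter unless a litter is named. Precision is limited by how few arrays there are, above all by the 2 of WT CD11b+ DC.

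All 5 measured Fc receptor genes were higher in RM than in CD11b+ DC, in Runx3Δ and in WT mice, by 1.81- to 5.03-fold. None of the 5 differed detectably between Runx3Δ and WT in either cell type. Differences were tested with limma over all rows with Benjamini-Hochberg adjustment, and a gene is called higher or lower where the adjusted p was under 0.05. In the comparison of RM with CD11b+ DC within Runx3Δ, 5 of 5 members were higher, where 3.73% of all rows were higher and 4.12% lower. Within WT, 5 of 5 were higher, where 3.05% of all rows were higher and 3.02% lower, and 4.14% of the rows with 1 gene symbol were higher. Of 8 granulocyte markers, 2 were higher in RM in Runx3Δ and 1 in WT, and 5 of the 8 had a mean under 5. In each genotype 5 of the 8 had a difference above 0 and 3 below. *Csf3r* was higher in both genotypes, by 2.66- and 4.01-fold, while *Siglecf* was at -0.57 and -0.52 (adjusted p = 0.103 and 0.255). The part of these genes in the Fc receptor differences was not tested. Since RNA was taken from sorted pools, fewer cells that express a gene and less RNA per cell cannot be told apart.

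**Figure D1:**
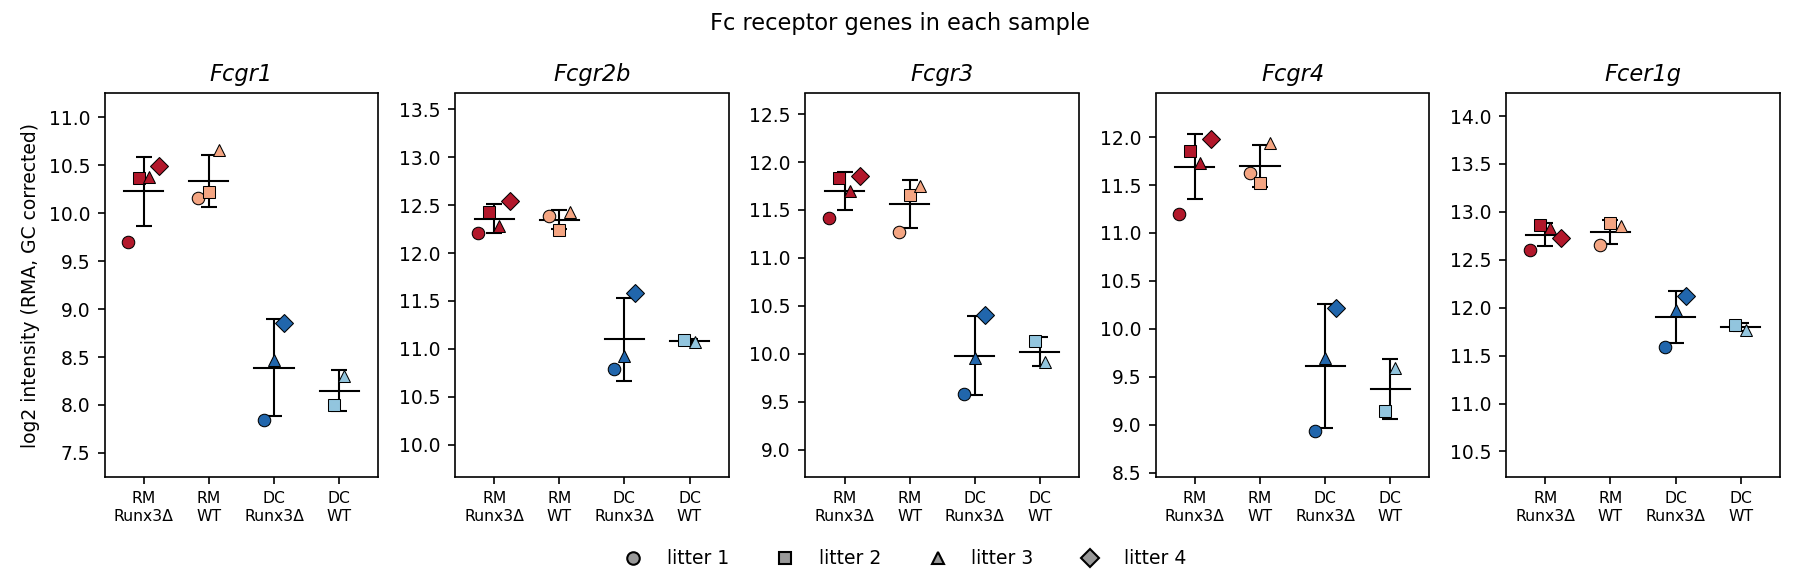
Log2 intensity of each member gene in the 12 samples, by cell type and genotype, with 1 point per sample, its shape giving the litter number and bars the mean and SD. All axes span 4 log2 units, and for each of the 5 genes every RM sample lies above every CD11b+ DC sample.

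*Fcgr1* (row 10500335), the high-affinity receptor, was at 9.70, 10.37, 10.38 and 10.49 in the Runx3Δ RM samples and at 10.16, 10.22 and 10.66 in the WT RM samples. In CD11b+ DC it was at 7.84, 8.47 and 8.86 in Runx3Δ and at 8.00 and 8.30 in WT. The lowest RM sample, replicate 1 of Runx3Δ, still lay 0.84 above the highest CD11b+ DC sample, while the genotypes overlapped within each cell type. In Runx3Δ mice RM exceeded CD11b+ DC by a log2 difference of 1.84 (standard error 0.25, 95% confidence interval 1.29 to 2.39, adjusted p = 0.000987), a 3.58-fold higher level. In WT mice they did so by 2.20 (standard error 0.30, 95% confidence interval 1.54 to 2.86, adjusted p = 0.00132), a 4.59-fold higher level. Of the 19938 genes, ranked by this difference in WT, *Fcgr1* stood at place 52.

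*Fcgr4* (row 10351509), which encodes the activating receptor for IgG2a and IgG2b complexes, had the largest difference of the 5. It was at 11.20, 11.85, 11.73 and 11.98 in Runx3Δ RM and at 11.63, 11.52 and 11.94 in WT RM, against 8.93, 9.69 and 10.22 in Runx3Δ CD11b+ DC and 9.14 and 9.59 in WT CD11b+ DC. RM and CD11b+ DC were 0.98 apart at their nearest samples, and the 3 Runx3Δ CD11b+ DC samples were widely spread (SD 0.65). RM exceeded CD11b+ DC by 2.08 in Runx3Δ (standard error 0.28, adjusted p = 0.000869), or 4.22-fold. In WT the excess was 2.33 (standard error 0.33, adjusted p = 0.00174), or 5.03-fold, at place 41 of the 19938 genes.

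*Fcgr3* (row 10360040), the low-affinity activating receptor CD16, was at 11.42, 11.83, 11.70 and 11.85 in Runx3Δ RM and at 11.27, 11.66 and 11.75 in WT RM. In CD11b+ DC its levels were 9.58, 9.96 and 10.40 in Runx3Δ and 10.13 and 9.91 in WT. Again the cell types did not overlap and the genotypes did. RM exceeded CD11b+ DC by 1.72 in Runx3Δ (standard error 0.19, adjusted p = 0.000265), or 3.30-fold, and by 1.54 in WT (standard error 0.23, adjusted p = 0.00213), or 2.91-fold.

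*Fcer1g* (row 10360070), the γ chain that these 3 activating receptors share, was bright in all groups. Its levels were 12.60, 12.86, 12.83 and 12.73 in Runx3Δ RM and 12.65, 12.88 and 12.85 in WT RM, against 11.59, 11.98 and 12.12 in Runx3Δ CD11b+ DC and 11.82 and 11.77 in WT CD11b+ DC. It had the smallest difference among the 5 genes, with 0.48 between the nearest samples of both cell types. In Runx3Δ the difference was 0.86 (standard error 0.13, 95% confidence interval 0.58 to 1.14, adjusted p = 0.00168), or 1.81-fold. In WT it was 0.99 (standard error 0.15, 95% confidence interval 0.66 to 1.33, adjusted p = 0.00265), or 1.99-fold.

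*Fcgr2b* (row 10360028), the inhibitory receptor, was higher in RM as well, so the activating receptors were not alone. It was at 12.21, 12.43, 12.28 and 12.54 in Runx3Δ RM and at 12.39, 12.24 and 12.43 in WT RM, against 10.79, 10.93 and 11.58 in Runx3Δ CD11b+ DC and 11.09 and 11.07 in WT CD11b+ DC. The nearest samples of both cell types were 0.62 apart, and the genotypes overlapped within each. RM exceeded CD11b+ DC by 1.26 in Runx3Δ (standard error 0.17, adjusted p = 0.000810), or 2.40-fold, and by 1.27 in WT (standard error 0.20, adjusted p = 0.00308), or 2.42-fold. *Fcgr2b* is also the Fc receptor of B cells, and B cell markers moved with the cell type. The mean of 4 measured B cell markers lay at 8.92 to 9.52 in Runx3Δ RM and 8.57 to 9.95 in WT RM, against 7.90 to 8.47 in Runx3Δ and 7.56 to 8.48 in WT CD11b+ DC. Of the 4, *Cd79a* and *Cd79b* were higher in Runx3Δ RM and *Cd79b* in WT RM (adjusted p = 0.0222, 0.0217 and 0.0302). In replicate order the B cell markers averaged 9.22, 9.52, 9.43 and 8.92 in Runx3Δ RM and 9.95, 9.10 and 8.57 in WT RM. In CD11b+ DC these markers averaged 8.47, 7.90 and 8.16 in Runx3Δ and 8.48 and 7.56 in WT. Their part in the *Fcgr2b* difference was not tested. FcγRIIB and FcγRIII are alike in their extracellular parts, and whether probes of one also bind transcripts of the other was not tested either.

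For 5 of 5 members every RM sample lay above every CD11b+ DC sample, which 9.32% of all rows showed among the Runx3Δ samples and 16.1% among the WT samples. The difference was also present within litters. In the 3 litters with Runx3Δ samples of both cell types, all 15 values of the 5 members were above 0, at 0.60 to 2.28, and in the 2 such litters of WT all 10 were, at 1.06 to 2.38. For *Fcgr4* the Runx3Δ values were 2.28, 2.04 and 1.76 and the WT values 2.38 and 2.35. For *Fcer1g* they were 1.01, 0.86 and 0.60 in Runx3Δ and 1.06 and 1.08 in WT.

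**Figure D2:**
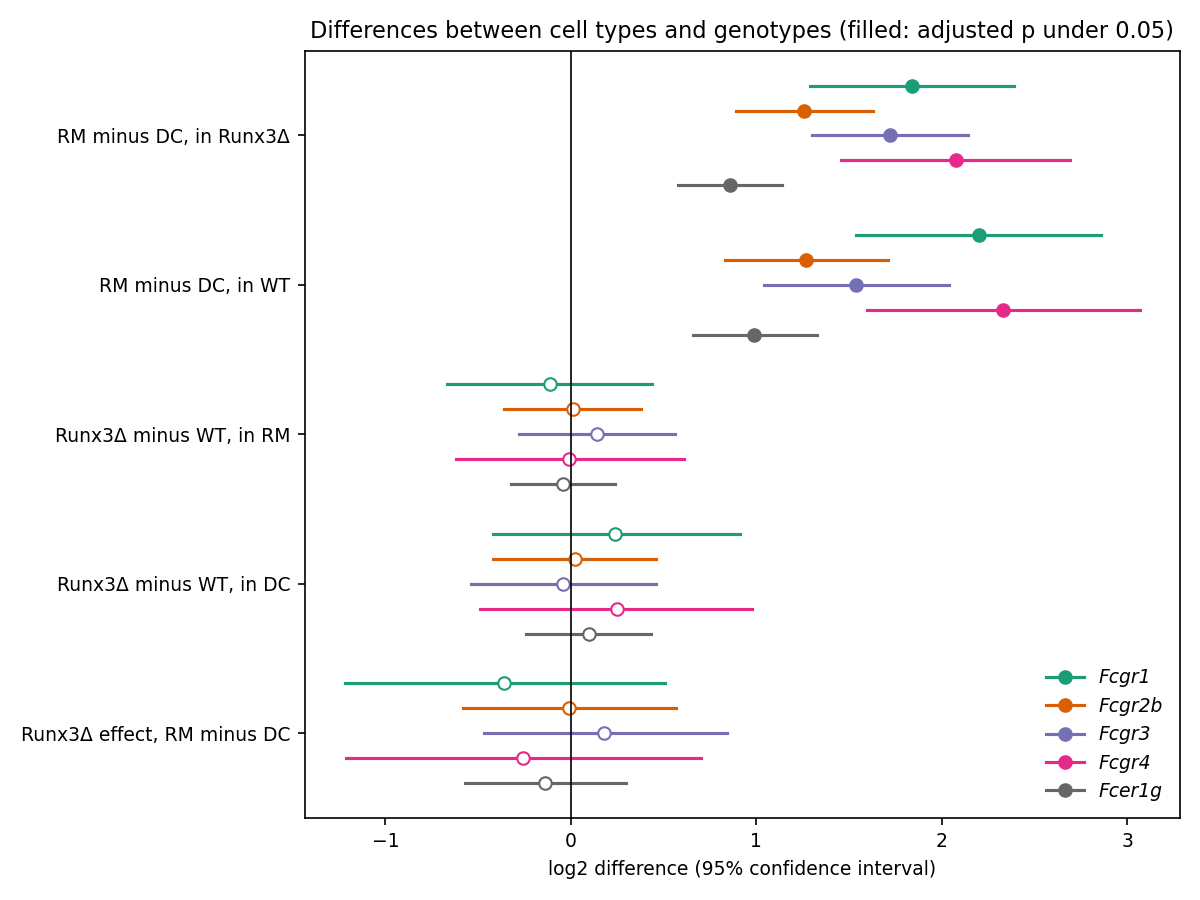
Log2 differences of the 5 genes in 5 comparisons, with lines for the 95% confidence interval and filled points for an adjusted p under 0.05. The 10 differences between RM and CD11b+ DC lie between 0.86 and 2.33, and the intervals of the other 15 include 0.

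The comparison of Runx3Δ with WT asks whether loss of Runx3 alters the receptors within a cell type. In RM, 0 of 5 members passed the adjusted threshold, where 0.0141% of all rows did, and the lowest unadjusted p of the 5 was 0.483. The log2 difference of *Fcgr1* was -0.11 (95% confidence interval -0.67 to 0.44), that of *Fcgr2b* 0.01 (-0.36 to 0.38) and that of *Fcgr3* 0.14 (-0.28 to 0.56). *Fcgr4* differed by -0.01 (-0.62 to 0.61) and *Fcer1g* by -0.04 (-0.32 to 0.24). The adjusted p-values were 0.886 to 0.998. The 95% intervals of *Fcgr2b*, *Fcgr3* and *Fcer1g* thus left out changes past 0.56 in either direction, while those of *Fcgr1* and *Fcgr4* reached to -0.67 and -0.62. In the litters with RM of both genotypes, 5 of 15 values were above 0 and 10 below, and for *Fcgr1* they were -0.47, 0.15 and -0.28.

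In CD11b+ DC, 0 of 5 members passed, where 0.00% of all rows did, and 2395 rows had an unadjusted p under 0.05. *Fcgr1* differed by 0.24 (-0.42 to 0.91), *Fcgr4* by 0.25 (-0.49 to 0.98) and *Fcer1g* by 0.10 (-0.24 to 0.43). For *Fcgr2b* the difference was 0.02 (-0.42 to 0.46) and for *Fcgr3* -0.04 (-0.54 to 0.46). The lowest unadjusted p of the 5 was 0.434. With 2 WT samples these intervals are wider than in RM, and those of *Fcgr1* and *Fcgr4* reached to 0.91 and 0.98. At the study's own thresholds, at least 1.5-fold with p at or below 0.05 before adjustment, 0 of 5 members passed in RM, where 1.46% of all rows passed in either direction. In CD11b+ DC 0 of 5 passed, where 2.13% of all rows did.

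The effect of Runx3Δ was not shown to differ between the cell types. As an interaction, the effect in RM minus that in CD11b+ DC was -0.36 (-1.22 to 0.51) for *Fcgr1*, -0.01 (-0.58 to 0.57) for *Fcgr2b* and 0.18 (-0.47 to 0.84) for *Fcgr3*. It was -0.26 (-1.21 to 0.70) for *Fcgr4* and -0.14 (-0.57 to 0.30) for *Fcer1g*. Here 0 of 5 members and 0.00% of all rows passed, and 1391 rows had an unadjusted p under 0.05, while the lowest of the 5 members was 0.381. In the order of the 4 group means, both RM groups thus stood above both CD11b+ DC groups for each gene, and the neighbours within a cell type were not shown to differ.

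Samples of 1 group were not spread alike, and the members moved together. Among Runx3Δ RM, replicate 1 was the lowest sample for 5 of 5 members, and it was the lowest for 31.0% of all rows. Among Runx3Δ CD11b+ DC, replicate 1 was the lowest for 5 of 5 and replicate 3 the highest for 5 of 5, against 35.2% and 27.7% of all rows. Both replicates 1 belong to litter 1. The mean deviation of the 5 members from their own group's mean was -0.32 in the RM sample and -0.45 in the CD11b+ DC sample of this litter. It was 0.44 in replicate 3 of Runx3Δ CD11b+ DC, which is of litter 4. The litter 4 sample of Runx3Δ RM was at 0.17. WT RM of litter 1 was at -0.13, and CD11b+ DC of this litter were not analysed for WT. The mean of the 10 RM markers deviated by -0.21, -0.15, 0.23, 0.26 and -0.34 in these 5 samples. Over the 12 samples it had the sign of the members' mean deviation in 7 and the opposite sign in 5. The opposite signs were in WT RM replicate 2, with 0.25 for the markers and -0.05 for the members, in Runx3Δ RM replicate 3 (-0.10 and 0.04), in Runx3Δ CD11b+ DC replicate 2 (-0.08 and 0.01) and in both WT CD11b+ DC samples (0.09 and -0.05, -0.09 and 0.05). The mean of the 2 measured monocyte markers, *Ccr2* and *Vcan*, deviated by -0.41, -0.48, 0.35, 0.29 and 0.24 in the same 5 samples. It had the sign of the members in 7 of 7 Runx3Δ samples and in 0 of 5 WT samples. Deviations sum to 0 within a group, so the signs of its samples are not independent, and the 2 of WT CD11b+ DC mirror each other. Some of the member means were as small as 0.01, and the sign counts were not tested between the genotypes. The part of either list in the deviations of the Fc receptor genes was not tested. Without both Runx3Δ samples of litter 1, an omission chosen after the data were seen, 5 of 5 members stayed higher in RM of each genotype and 0 of 5 passed between genotypes. The differences between Runx3Δ and WT then were 0.01 to 0.23 in RM and 0.16 to 0.59 in CD11b+ DC.

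**Figure D3:**
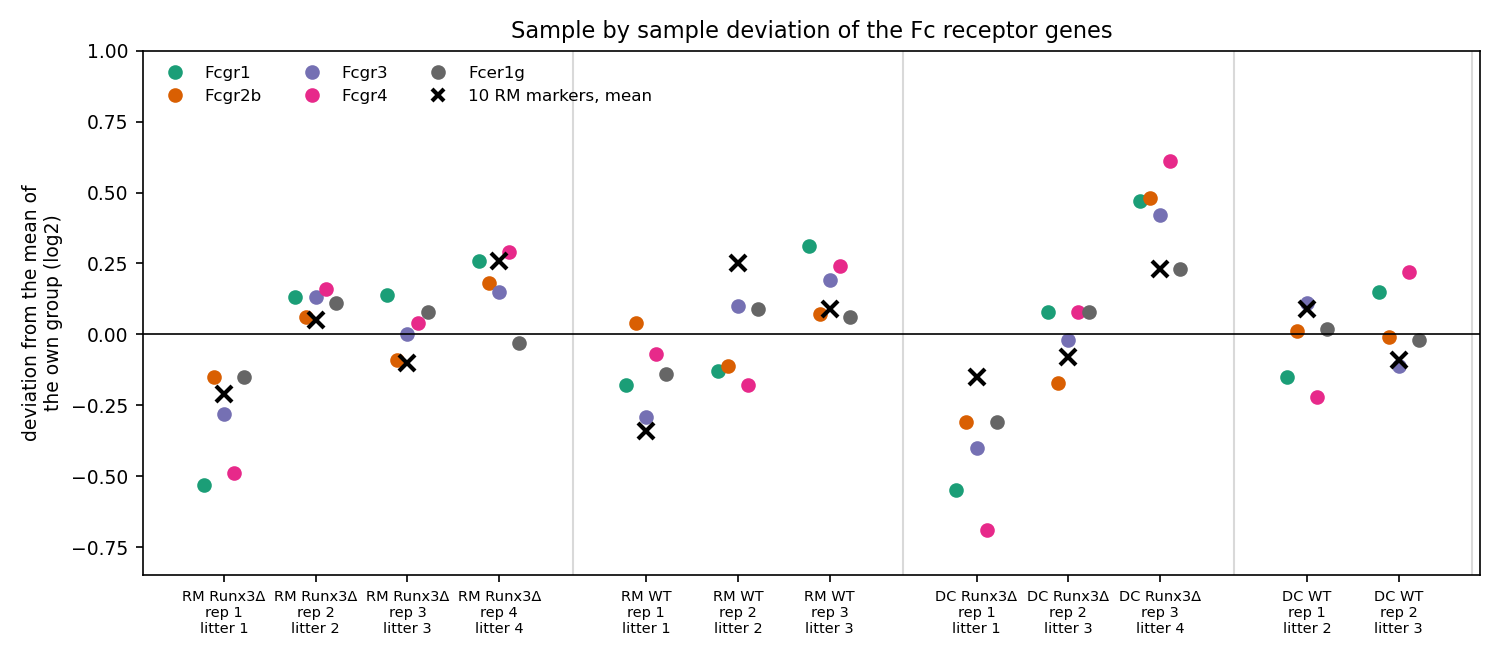
Deviation of each of the 5 genes, and of the mean of 10 RM markers (crosses), from the mean of its own group in log2 units, by sample and with the litter number below. In replicate 1 of Runx3Δ RM and of Runx3Δ CD11b+ DC all 5 genes lie below 0, and in replicate 3 of Runx3Δ CD11b+ DC all 5 lie above it.

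*Fcgr1* and *Fcgr4*, which lie on different chromosomes, had profiles closely alike. With each gene's own mean removed, the root mean square difference between their profiles over the 12 samples was 0.13, and each was the gene most like the other among 11725 genes with a mean level of at least 5. Next to *Fcgr1* came *Lair1* (0.17), an inhibitory collagen receptor, and *Pla2g15* (0.22), a lysosomal phospholipase. *Fcgr4* was followed by *C1qc* (0.25), a chain of complement C1q, and *Msr1* (0.26), the scavenger receptor SR-A. Nearest to *Fcgr2b* were *Cd14* (0.11), the lipopolysaccharide co-receptor, *Ets2* (0.12), a transcription factor, and *Scamp1* (0.14), a membrane trafficking protein. *Fcgr3* was nearest to *Ikbke* (0.13), a kinase of interferon induction, *Cndp2* (0.13), a dipeptidase, and *C1qb* (0.15). *Fcer1g* did not reach the span of 1 between group means that this ranking required. The samples share the contrast of the 2 cell types, which dominates these profiles, so likeness is given as a description.

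The genes between and beside the receptors were looked at as well, first on chromosome 1. From *Fcrla* to *Adamts4* there are 11 other genes, of which 8 had a row of their own. Of these, 0 passed between RM and CD11b+ DC in WT, where 3.05% of all rows were higher and 3.02% lower. At such shares 0 of 8 says little about these genes. *Pcp4l1* and *Nr1i3* lay under 5 in every group mean. Differences of the 8 ran from -0.08 to 0.76 in Runx3Δ and from -0.48 to 0.88 in WT. *Fcrla*, a B cell Fc receptor-like gene next to *Fcgr2b*, had the largest (adjusted p = 0.179 in WT). *Sdhc* and *Tomm40l*, genes of mitochondria between *Fcgr3* and *Fcer1g*, differed by -0.03 and 0.32 in WT (adjusted p = 0.953 and 0.174). On chromosomes 3 and 7, *H2bc18* beside *Fcgr1* and *Rcn3* beside *Fcgrt* were lower in RM in Runx3Δ, at -0.82 and -0.99 (adjusted p = 0.031 and 0.0103). In WT these 2 genes were at -0.70 and -0.82 (adjusted p = 0.138 and 0.0723). The other measured genes there did not pass.

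Some other Fc receptors and Fc receptor-like genes differed between the cell types. Of 13 measured, 3 were higher in RM than in CD11b+ DC in Runx3Δ and 1 in WT, with median differences of 0.35 and 0.64, against 0.02 and 0.01 over all genes. Of all rows, 3.73% were higher in Runx3Δ and 3.05% in WT. *Fcrl1*, a receptor of B cells, exceeded CD11b+ DC levels by 0.98 in Runx3Δ and by 1.20 in WT (adjusted p = 0.00862 and 0.00930). *Fcmr*, the IgM Fc receptor, was 1.18 higher in both, passing in Runx3Δ alone (adjusted p = 0.0316 and 0.0814 in WT). Both moved with the B cell markers given above, and their part was not tested. The third gene that passed in Runx3Δ was *Fcrls*, a scavenger-type member of macrophages, with a difference of 1.95 there (adjusted p = 0.0135) and of 0.64 in WT (adjusted p = 0.616). *Fcer1a* and *Ms4a2*, the α and β chains of the IgE receptor of mast cells and basophils, which couples to the γ chain, lay under 4 in every group mean, at 3.47 to 3.78. Of this list 0 passed the adjusted threshold between Runx3Δ and WT, beside 0.0141% of all rows in RM and 0.00% in CD11b+ DC. Its median differences were 0.01 in RM and -0.02 in CD11b+ DC. At the study's thresholds *Fcrls* was lower in Runx3Δ, at -1.18 in RM and -2.49 in CD11b+ DC (adjusted p = 0.516 and 0.265). *Pigr*, the epithelial transporter of polymeric immunoglobulin, was higher by 0.60 and 1.14 (adjusted p = 0.620 and 0.488), and *Fcrlb* was higher by 0.71 in RM (adjusted p = 0.578). The mean of 5 epithelial markers, whose part in the *Pigr* values was not tested, lay at 5.37 to 5.91 in Runx3Δ RM and 5.27 to 5.77 in WT RM, and at 6.16 to 6.50 in Runx3Δ and 6.04 to 6.13 in WT CD11b+ DC. These 5 did not move as 1 between the cell types. *Cdh1* (-2.60 in Runx3Δ and -3.21 in WT) and *Epcam* (-1.04 and -1.21) were lower in RM, and the other 3 had values above 0 in each genotype.

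Besides the Fc receptors, several lectin and immunoglobulin-like receptors pair with the γ chain. Of 10 listed, 8 had a row, and 3 were higher in RM than in CD11b+ DC in each genotype. Of all rows, 3.73% were higher in Runx3Δ and 3.05% in WT. *Lilra5*, an activating leukocyte receptor, was at 8.49 ± 0.28 in Runx3Δ RM and 8.97 ± 0.38 in WT RM, against 6.13 ± 0.33 in Runx3Δ and 5.97 ± 0.34 in WT CD11b+ DC (SD, n = 4, 3, 3 and 2). Its difference, 2.36 in Runx3Δ and 3.00 in WT (adjusted p = 0.000104 and 9.44e-05), was larger than that of any Fcγ receptor gene. The fungal receptors *Clec4d* and *Clec4n* were higher by 1.29 and 0.88 in Runx3Δ and by 1.42 and 1.05 in WT (adjusted p = 0.00133, 0.00531, 0.00286 and 0.00648). *Ncr1* and *Klrb1c*, receptors of NK cells, lay between 3.46 and 3.61 in all group means. Between Runx3Δ and WT 0 of 8 passed after adjustment, beside 0.0141% of all rows in RM and 0.00% in CD11b+ DC. *Tarm1*, an activating receptor of myeloid cells, was the 1 gene of the list at the study's thresholds, at 11.22, 12.08, 11.67 and 11.83 in Runx3Δ RM against 10.99, 9.19 and 9.97 in WT RM, and at 10.14, 10.49 and 11.29 in Runx3Δ CD11b+ DC against 9.36 and 9.79 in WT CD11b+ DC. Its genotypes did not overlap in either cell type, but the share of all rows that did likewise was not counted. Its differences of 1.65 and 1.06 did not pass after adjustment (adjusted p = 0.264 and 0.733). The median of the list was -0.07 in RM and 0.03 in CD11b+ DC, against 0.01 and 0.01 over all genes.

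Downstream of the receptors, no common direction was seen. Of 24 measured genes of the activating signal, 4 were higher and 3 lower in RM than in CD11b+ DC in Runx3Δ, and 4 higher and 4 lower in WT, with medians of 0.13 and 0.15. Beside this list and the inhibitory one below, 3.73% of all rows were higher and 4.12% lower in Runx3Δ. In WT these shares were 3.05% and 3.02%. *Src*, a kinase of the family that phosphorylates the γ chain, was 1.38 higher in Runx3Δ and 1.58 higher in WT (adjusted p = 0.000535 and 0.000866). *Fyn*, of the same family, fell by 0.76 and by 0.81 in RM relative to CD11b+ DC (adjusted p = 0.000639 and 0.00174). *Syk*, the kinase that binds the phosphorylated chain, was 0.39 higher in Runx3Δ RM (adjusted p = 0.00721), and the value in WT was 0.25 (adjusted p = 0.142). *Tyrobp*, which encodes DAP12, the adaptor most like the γ chain, had differences of 0.11 and 0.21 (adjusted p = 0.765 and 0.642). Of 10 genes of the inhibitory signal, 1 was higher and 0 lower in RM in Runx3Δ, and 1 was higher and 1 lower in WT, with medians of 0.16 and 0.14. The higher one was *Dok3*, an adaptor of inhibitory signalling, 1.29 higher in Runx3Δ and 1.46 higher in WT (adjusted p = 0.000215 and 0.000388). *Ptpn11*, which encodes the phosphatase SHP-2, was the lower one in WT, at -0.53 (adjusted p = 0.0148), with a value of -0.20 in Runx3Δ (adjusted p = 0.255). *Inpp5d*, which encodes SHIP-1, the phosphatase recruited by FcγRIIB, differed by 0.07 and 0.30 (adjusted p = 0.788 and 0.213).

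Between Runx3Δ and WT 0 of the 24 activating and 0 of the 10 inhibitory genes passed after adjustment in either cell type. Only 0.0141% of all rows in RM and 0.00% in CD11b+ DC did, so 0 of a list says little about its genes. At the study's thresholds, *Src* was higher by 0.66 and *Vav3*, a guanine nucleotide exchange factor, lower, at -0.71, in Runx3Δ CD11b+ DC (adjusted p = 0.529 and 0.265). The adaptor *Dok2* differed in opposite directions, at 0.64 in RM and -0.80 in CD11b+ DC (adjusted p = 0.571 and 0.666), and the test of this gap as an interaction did not pass (1.44, adjusted p = 1). The medians of both lists lay between -0.04 and -0.01 in both cell types.

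Binding of IgG complexes leads to engulfment and to the oxidative burst. Of 12 measured genes of the phagocytic actin machinery, 1 was higher and 1 lower in RM in Runx3Δ and 1 higher in WT, beside the 3.73%, 4.12% and 3.05% of all rows given above. *Pld1*, a phospholipase of the forming phagosome, was the higher one, by 1.15 and 1.59 (adjusted p = 0.0149 and 0.00819), and *Elmo1*, a partner of Rac exchange factors, the lower one in Runx3Δ, at -0.48 (adjusted p = 0.0109). *Rac1* and *Cdc42*, GTPases that drive actin, differed by 0.06 to 0.11 (adjusted p = 0.535 to 0.865). Of 4 measured subunits of the phagocyte oxidase, *Cybb*, the catalytic one, was 0.70 higher in Runx3Δ and 0.64 higher in WT (adjusted p = 0.00350 and 0.0196). *Ncf1* was lower in RM, at -0.58 in Runx3Δ, and its value in WT was -0.43 (adjusted p = 0.00630 and 0.0811), while *Ncf4* was 0.42 higher in WT (adjusted p = 0.0339). *B2m*, the light chain that FcRn needs, was at 0.19 and 0.18 (adjusted p = 0.195 and 0.347). None of these genes passed between Runx3Δ and WT, beside 0.0141% of all rows in RM and 0.00% in CD11b+ DC. *Pld1*, at -0.66 in RM (adjusted p = 0.539), was the 1 gene at the study's thresholds. The lowest p-values of the oxidase list belonged to *Cyba*, the partner chain of *Cybb*, at 0.30 in RM and 0.16 in CD11b+ DC (adjusted p = 0.614 and 0.915), and to *Ncf4*, at -0.19 and 0.20 (adjusted p = 0.620 and 0.775). *Ncf1* was at -0.10 and 0.06, and *B2m* at 0.03 and 0.03 (adjusted p = 0.861, 0.974, 0.940 and 0.983).

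Of 12 measured genes for regulators known to act on Fc receptor expression, 5 were higher and 1 lower in RM than in CD11b+ DC in Runx3Δ and 5 higher in WT, with medians of 0.31 and 0.54. Beside them, 3.73% of all rows were higher and 4.12% lower in Runx3Δ, and 3.05% were higher in WT. *C5ar1*, the receptor for C5a, which shifts the balance of activating to inhibitory receptors, was 2.32 higher in Runx3Δ and 2.07 higher in WT (adjusted p = 6.62e-05 and 0.000479). *Tgfbr1* and *Tgfbr2*, the TGF-β receptors, were higher by 1.80 and 1.12 in Runx3Δ and by 2.08 and 1.28 in WT (adjusted p = 5.82e-05, 0.000555, 9.44e-05 and 0.000966). *Cebpb* was higher by 1.11 and 0.81 (adjusted p = 0.000633 and 0.0158). *Spi1*, which encodes PU.1, had a value of 0.10 in Runx3Δ (adjusted p = 0.605) and was 0.48 higher in RM in WT (adjusted p = 0.0176), and this gap between the genotypes was not significant as an interaction (-0.38, adjusted p = 1). *Ifngr1*, a subunit of the interferon-γ receptor, was lower in RM, at -0.53 in Runx3Δ (adjusted p = 0.00956), with a value of -0.33 in WT (adjusted p = 0.190). Between Runx3Δ and WT, 0 of the 12 passed at either set of thresholds, with medians of -0.15 in RM and -0.11 in CD11b+ DC. Of all rows, 0.0141% in RM and 0.00% in CD11b+ DC passed after adjustment, and 1.46% and 2.13% at the study's thresholds. The lowest p-values were those of *Irf8*, a transcription factor of dendritic cells and macrophages, at 0.31 in RM and 0.52 in CD11b+ DC (adjusted p = 0.624 and 0.547), of *Spi1*, at -0.14 and 0.24 (adjusted p = 0.729 and 0.731), and of *C5ar1*, at -0.28 and -0.53 (adjusted p = 0.777 and 0.742).

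**Figure D4:**
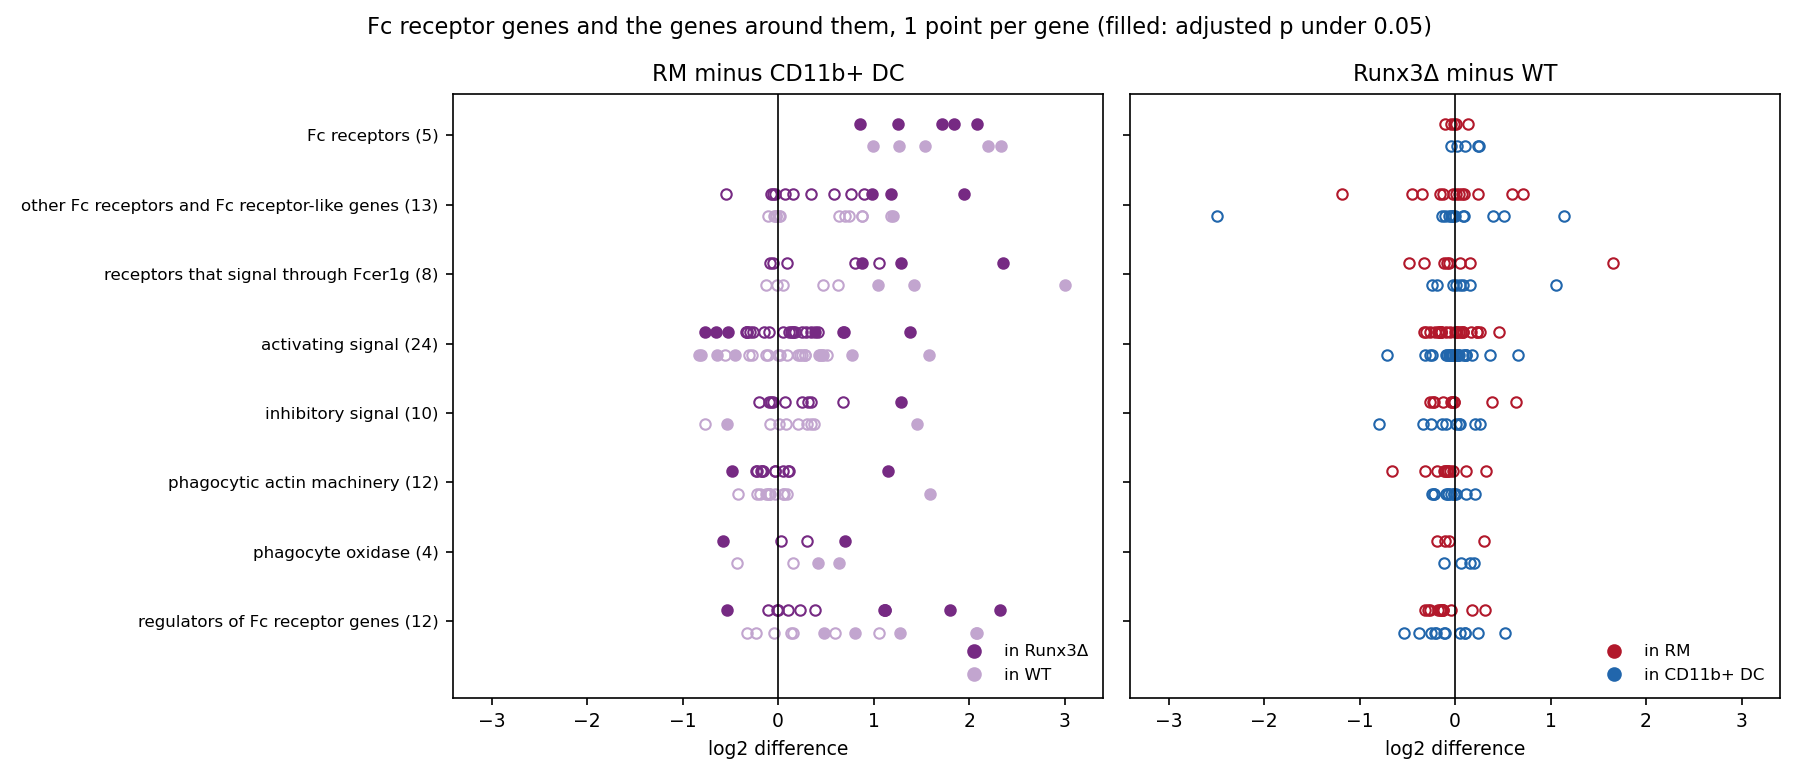
Log2 differences of the Fc receptor genes and of 7 lists of related genes, 1 point per gene, between RM and CD11b+ DC in each genotype (left) and between Runx3Δ and WT in each cell type (right), filled where the adjusted p was under 0.05. The 5 Fc receptor genes are all filled and above 0 on the left, and no point is filled on the right.

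Markers of other cells that the gate could hold were also measured. Of 8 granulocyte markers, 5 had a mean under 5, 2 were higher in RM in Runx3Δ and 1 in WT, and the mean of the list lay at 5.68 to 5.77 in Runx3Δ RM and 5.51 to 5.79 in WT RM, against 5.49 to 5.62 in Runx3Δ and 5.37 to 5.48 in WT CD11b+ DC. Within each genotype these means of RM and CD11b+ DC did not overlap. Among single rows, 9.32% in Runx3Δ and 16.1% in WT had every RM sample above every CD11b+ DC sample. By adjusted p, 3.73% and 3.05% of all rows were higher in RM. The largest difference of the 8 was that of *Csf3r*, at 1.41 in Runx3Δ and 2.00 in WT, and *S100a8* lay under 5 in every group mean. Of the 8, 3 had a difference below 0 in each genotype, among them *Siglecf*, at -0.57 in Runx3Δ and -0.52 in WT (adjusted p = 0.103 and 0.255). *Csf3r*, the receptor for G-CSF, was at 9.84 ± 0.25 in Runx3Δ RM and 9.62 ± 0.28 in WT RM, against 8.43 ± 0.35 in Runx3Δ and 7.61 ± 0.03 in WT CD11b+ DC (SD, n = 4, 3, 3 and 2; adjusted p = 0.000834 in Runx3Δ and 0.000370 in WT), and *S100a8* was 0.39 higher in Runx3Δ RM (adjusted p = 0.0239). The 8 markers of mast cells and basophils had means of 4.10 to 4.81 in Runx3Δ RM and 3.93 to 4.16 in WT RM. In CD11b+ DC these means were 4.38 to 4.74 in Runx3Δ and 4.23 to 4.55 in WT, with 6 of 8 genes under 5. For T and NK cells the 7 markers averaged 5.26 to 6.12 in Runx3Δ RM and 4.63 to 5.43 in WT RM. In CD11b+ DC these 7 averaged 5.30 to 5.48 in Runx3Δ and 5.07 to 5.10 in WT. Between Runx3Δ and WT, 7 of 7 had a difference above 0 in RM (median 0.52). In CD11b+ DC 5 did and 2 were below 0 (median 0.36). The 2 measured monocyte markers averaged 7.25 to 8.30 in RM and 6.66 to 8.27 in CD11b+ DC, and 0 of 2 passed in any comparison. Of the 5 epithelial markers, 2 were lower in RM than in CD11b+ DC in each genotype, beside 4.12% of all rows in Runx3Δ and 3.02% in WT. The 4 endothelial markers averaged 5.86 to 6.14 in RM and 5.81 to 6.42 in CD11b+ DC. Between Runx3Δ and WT 0 of all these markers passed after adjustment, beside 0.0141% of all rows in RM and 0.00% in CD11b+ DC. At the study's thresholds, *Cx3cr1* and *Dpp4* were lower in Runx3Δ RM, at -0.59 and -0.62, and *Ccr7* and *Mcpt1* higher, by 0.63 and 1.18 (adjusted p = 0.410 to 0.616). In Runx3Δ CD11b+ DC *Mrc1*, *Irf4*, *Cd24a* and *Vcan* were lower, at -1.21, -0.66, -0.79 and -1.33, and *Csf3r* and *Krt8* higher, by 0.81 and 0.79 (adjusted p = 0.327 to 0.729).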

How the data were processed

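RNA of sorted RM and CD11b+ DC was hybridised to Affymetrix mouse arrays. The authors deposited log2 intensities, computed in Partek by RMA and corrected for GC content, and nothing further was done to them. Methods and platform record differ on the array (exon or gene level), and the platform's gene-level annotation gave the names (21789 of 35556 rows carry 1 gene symbol, 1621 several and 12146 none). The processing notes name the build mm9. Promoter windows came from RefSeq (GRCm38.p6), and no coordinate was taken across builds.

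A single limma model (version 3.58.1, R 4.3.3; lmFit, eBayes) held the 4 groups and gave 5 comparisons, with Benjamini-Hochberg adjustment across all rows and 0.05 as threshold. Calls at the study's thresholds (1.5-fold, p of 0.05 before adjustment) were also counted. The fit was tested on simulated data. A gene with several rows was represented by the brightest.

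Named genes were the members, *Runx3*, of each list other than markers those at either set of thresholds between genotypes or else up to 3 with the smallest p, and the 3 genes with the most similar profiles. Marker genes, list genes named for RM against CD11b+ DC, and the neighbours of the receptors, were chosen after their values were seen. The lists were other Fc receptors and Fc receptor-like genes, receptors that signal through *Fcer1g*, activating signal, inhibitory signal, phagocytic actin machinery, phagocyte oxidase, the FcRn partner *B2m*, regulators of Fc receptor genes, and markers of RM, CD11b+ DC, monocytes, granulocytes, mast cells and basophils, B cells, T and NK cells, epithelium and endothelium. Members and lists were chosen with earlier results of these data known. Listed genes with no row of their own are not reported here.

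Sample labels carry a litter mate number. An equal number was taken to mark a shared litter across cell types and genotypes, which is an assumption. Deviations from the group means correlated at a median of 0.0958 in 13 same-number pairs (-0.0412 to 0.358), and at -0.0347 in 40 pairs that shared neither number nor group (-0.257 to 0.203). The litter was used as a replicate block or, with statmod 1.5.0, as a random effect. Further alternatives were array weights, an intensity trend with a robust prior, a filter on rows under a log2 level of 5, quantile normalisation, centring on the array median, the brightest row or the rows' mean for each gene, omission of 6617 unnamed rows that lead the table, only the groups compared, the methods' test, and omission of each sample in turn. Plots were made in matplotlib 3.10.9 (Python 3.11.15). Only the arrays were used, and protein sequences were not compared.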

Additional observations from a re-analysis of the deposited data

Results flagged for a closer look

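*Fcgr1* in replicate 1 of Runx3Δ RM, at 9.70, stood apart from the other 3 samples of its group, at 10.37 to 10.49. The gap to its nearest neighbour was 0.845 of the range of the group, above Dixon's 95% critical value for 4 samples. Of 5 such tests, 1 per member in this group, 1 was past the limit, and chance gives about 1 in 20 for each single test. The 5 tests are not independent, since replicate 1 was the lowest sample of the group for 5 of 5 members. The other 3 groups have fewer than 4 samples and were not tested.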

How the results depend on the processing

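The counts of members called were the same under all alternatives run, 26 per comparison and 25 for the interaction: 5 of 5 higher in RM in each genotype, 0 of 5 between genotypes in each cell type and 0 of 5 for the interaction. Adjusted p-values of the 5 genes between RM and CD11b+ DC ranged from 1.88e-05 to 0.00808 in Runx3Δ and from 0.000121 to 0.0355 in WT. With the litter as replicate block, 5 and 5 members stayed higher in RM, 0 passed between genotypes, and no call changed. In that paired fit the differences between RM and CD11b+ DC were 0.83 to 2.12 in Runx3Δ and 1.09 to 2.48 in WT.

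Several differences between Runx3Δ and WT changed sign, and none passed a threshold. *Fcgr2b* in RM was at -0.10 with the litter block, 0.00 with litter as a random effect and -0.03 after median centring, and *Fcgr4* in RM at 0.02 with array weights and 0.03 after quantile normalisation. In CD11b+ DC the block gave -0.09 for *Fcgr2b* and 0.04 for *Fcgr3*, and array weights gave 0.09 for *Fcgr3*, 0.40 for *Fcgr1* and 0.45 for *Fcgr4*. Without both Runx3Δ samples of litter 1, chosen after seeing the data, *Fcgr1* was at 0.06, *Fcgr4* at 0.16 and *Fcer1g* at 0.01 in RM, and *Fcgr3* at 0.16 in CD11b+ DC. The cause of these changes was not tested. With each sample left out in turn, RM values ranged from -0.20 to 0.06 for *Fcgr1*, -0.05 to 0.06 for *Fcgr2b*, -0.01 to 0.23 for *Fcgr3*, -0.10 to 0.16 for *Fcgr4* and -0.11 to 0.01 for *Fcer1g*. CD11b+ DC values ranged from 0.01 to 0.52 for *Fcgr1*, -0.22 to 0.18 for *Fcgr2b*, -0.25 to 0.16 for *Fcgr3*, -0.05 to 0.59 for *Fcgr4* and -0.01 to 0.25 for *Fcer1g*. Without replicate 1 of Runx3Δ CD11b+ DC, *Fcgr1* and *Fcgr4* were at 0.52 and 0.59, without replicate 3 at 0.01 and -0.05, and without replicate 1 of WT CD11b+ DC at 0.09 and 0.03. The interaction ranged from -0.63 to -0.12 for *Fcgr1*, -0.17 to 0.23 for *Fcgr2b*, -0.02 to 0.39 for *Fcgr3*, -0.60 to 0.05 for *Fcgr4* and -0.29 to -0.02 for *Fcer1g*. Where 1 WT CD11b+ DC sample was left out, the other was assumed to vary like the other groups.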
